A study of Homo sapiens with 24 samples.

Results

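The 44 DNA replication and G1/S genes described here encode the replicative helicase, the origin factors, the DNA polymerases with their clamp and clamp loader, the enzymes that supply nucleotides, and cyclin E with its partners. They were listed by name and role, not by a threshold on measured values, and are 44 of the 27431 gene symbols in the 3 genome-wide tables of the study. All 44 were found in each table. TFAP2C, which encodes the transcription factor AP-2gamma, was knocked down in HER2-positive breast carcinoma lines to find the AP-2gamma targets behind growth and invasion, and mRNA was sequenced from 24 samples in 8 groups of 3. SKBR3 and HCC1954 are such lines, and HCC1569 is a further one for which the table used here holds 68 genes and 0 of the 44.

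The knockdown groups were SKBR3 and HCC1954 cells transfected with a TFAP2C siRNA and HCC1954 clones with a lentiviral TFAP2C shRNA. Their control groups were the same lines transfected with Negative control siRNA#2, and HCC1954 clones with the negative control shRNA SHC002. The siRNA was given with Lipofectamine RNAiMAX, and cells were taken after 72 to 96 h. One siRNA and 1 shRNA were used, so an effect of either sequence on other transcripts cannot be told apart from an effect of TFAP2C loss. The labels speak of clones for the stable lines but not of how many, and state that the lines, kept at early passage, were not authenticated by the submitters. The line behind the HCC1954 siRNA table is known from the name of the deposited file alone.

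Each table gives 1 FPKM value (fragments scaled to transcript length and library size) per entry and group, with the 3 samples of the group pooled by the authors' tool. No value therefore has a replicate spread, depth per sample is unknown, and the labels do not tell whether the samples of a group were separate cultures, so the deposited p-values may measure technical spread. FPKM was summed over the RefSeq transcripts of a gene. A gene is called changed where the q-value in the authors' deposited table is under 0.05 for its most abundant tested transcript. TFAP2C itself had 53.9 FPKM in SKBR3 knockdown cells, against 157 FPKM in control cells. It had 22.0 FPKM with siRNA in HCC1954, against 92.4 FPKM in control cells, and 3.46 FPKM with shRNA, against 81.0 FPKM. ERBB2, the HER2 gene, had 609 FPKM in SKBR3 knockdown cells, against 1109 FPKM in control cells, and 4016 FPKM with siRNA in HCC1954, against 4676 FPKM. With shRNA it had 20.8 FPKM, against 1525 FPKM. The epithelial keratin gene KRT8 stood between 807 and 2137 FPKM in the 6 groups, and CDH1 (E-cadherin) had 0.0970 FPKM in SKBR3 knockdown cells, against 0.0894 FPKM in control cells. With shRNA the 5 epithelial markers, ERBB2 included, summed to 1315 FPKM, against 3143 FPKM in control cells. The endothelial marker PECAM1 had 0.0180 FPKM with shRNA, against 11.6 FPKM, and reached 27.0 FPKM in the HCC1954 siRNA pair. The other endothelial markers, VWF, KDR and TEK, were under 1 FPKM in every group. The part of these markers in the shRNA results was not tested. Fibroblast markers summed to at most 1.96 FPKM in any group, and the leukocyte markers other than CD68 were under 1 FPKM.

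In a dividing cell, the origin recognition complex, CDC6 and CDT1 load the MCM2 to MCM7 ring on DNA in G1, and CDC45 and GINS join it at the G1/S transition to make the active helicase. Polymerase alpha with primase starts each strand, and polymerases delta and epsilon extend it on the PCNA clamp, which the RFC loader places. Cyclin E with CDK2 drives entry into S phase through release of E2F factors, and E2F factors in turn activate many of the genes named here, which is why their mRNA is widely read as a mark of proliferation.

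The promoters of 3 members are shown because these genes fell in both SKBR3 and the HCC1954 shRNA cells and carry a match to an E2F site. They are those of GINS2, CDC6 and PCNA, those of 9 such genes for which the smaller of both falls was largest. The sequences are RefSeq windows of 300 bases on GRCh38.p14, running 5′ to 3′ along the gene from 250 bases before its start to 50 bases after, with the E2F match in capitals. They lie at chr16:85688905-85689204 (minus strand), chr17:40287629-40287928 (plus strand) and chr20:5126573-5126872 (minus strand) on that build.
GINS2: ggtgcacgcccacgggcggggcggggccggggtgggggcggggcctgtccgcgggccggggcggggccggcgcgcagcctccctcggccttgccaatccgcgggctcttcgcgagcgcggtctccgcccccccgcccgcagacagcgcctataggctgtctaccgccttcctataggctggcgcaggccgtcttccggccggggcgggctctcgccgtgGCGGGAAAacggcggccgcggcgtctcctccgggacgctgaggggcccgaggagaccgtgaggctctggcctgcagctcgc
CDC6: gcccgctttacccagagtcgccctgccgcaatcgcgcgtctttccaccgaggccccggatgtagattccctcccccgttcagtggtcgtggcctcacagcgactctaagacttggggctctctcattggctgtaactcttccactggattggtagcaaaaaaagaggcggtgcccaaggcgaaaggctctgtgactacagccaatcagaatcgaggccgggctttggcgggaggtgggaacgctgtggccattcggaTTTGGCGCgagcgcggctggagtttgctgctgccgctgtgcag
PCNA: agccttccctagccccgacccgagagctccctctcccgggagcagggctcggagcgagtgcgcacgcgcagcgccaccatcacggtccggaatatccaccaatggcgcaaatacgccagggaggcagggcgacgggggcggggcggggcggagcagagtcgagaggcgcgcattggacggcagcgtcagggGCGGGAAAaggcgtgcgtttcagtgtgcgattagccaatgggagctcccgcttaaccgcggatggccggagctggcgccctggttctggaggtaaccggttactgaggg
The match in CDC6 reads TTTGGCGC from base 258 of the window. In GINS2 and PCNA it reads GCGGGAAA, the other strand of TTTCCCGC, from bases 220 and 192. Of 37 members with a window in the RefSeq table (the first start listed for each gene), 19 (51.4%) held TTTCCCGC, TTTGGCGC, TTTCGCGC or TTTGCCGC on either strand, against 3.33% of all 27305 genes with a window and 5.66% of those tested in SKBR3. A CCAAT box (CCAAT, either strand) was in 21 (56.8%), against 35.7% of all genes and 37.7% of those tested in SKBR3. The cell cycle element CHR (TTTGAA or TTCGAA), which is known from promoters of mitotic genes, was in 2 (5.41%), against 16.6% of all genes and 11.1% of those tested in SKBR3. An AP-2 site in its plain form, GCCNNNGGC, was in 13 (35.1%), against 23.0% of all genes and 32.8% of those tested in SKBR3. These are letters in a window and not bound sites.

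In SKBR3, most of the replication genes tested fell with knockdown of TFAP2C, and each of the 8 subgroups held at least 1 gene that fell. Of the 42 members tested, 26 fell (61.9%), against 20.7% of all 10046 genes tested, and 1 rose (2.38%), against 12.5%. The ratio of knockdown over control FPKM was below 1 for 43 of the 44 genes, and its median over them was -0.63 on the log2 scale, against -0.08 over the 12032 genes with a mean of at least 1 FPKM. The members lay between -1.29 (POLE2, not tested) and 0.34 (CHAF1B). POLE2 was not tested in any table and LIG1 not in SKBR3. Fewer cells in S phase and less RNA of these genes per cell cannot be told apart in such bulk RNA.

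Helicase genes held the most calls in SKBR3, with 10 of 11 genes lower and a median log2 ratio of -0.70. GINS1, a subunit of the GINS complex, had 16.3 FPKM in knockdown cells, against 37.6 FPKM in control cells (2.31-fold lower, q = 0.000441 in the authors' deposited table). GINS2, GINS3 and GINS4 fell 1.83-, 1.63- and 1.63-fold, so all 4 GINS genes were lower. CDC45 had 3.44 FPKM in knockdown cells, against 5.68 FPKM in control cells. Among the ring subunits, MCM4 had 40.3 FPKM, against 65.6 FPKM in control cells, and MCM7 had 63.2 FPKM, against 98.2 FPKM. MCM3, MCM5 and MCM6 also fell, with log2 ratios of -0.49, -0.50 and -0.60, while MCM2 at 15.5 FPKM, against 21.9 FPKM, was not called (q = 0.366 in the authors' deposited table). The 6 ring subunits thus stood at similar ratios of summed FPKM. On the transcripts that carried the test, the log2 ratios ran from -0.21 (MCM2) to -0.88 (MCM7).

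**Figure D1:**
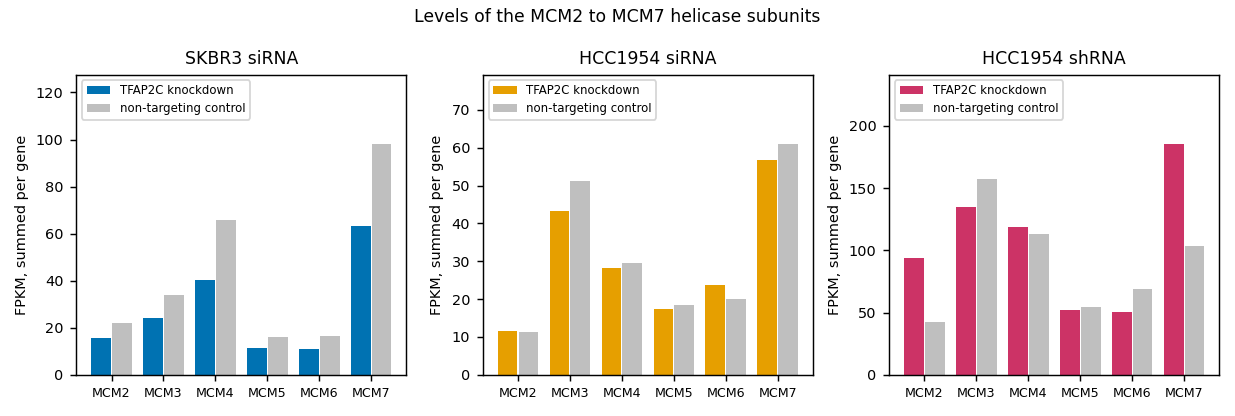
Summed FPKM of the helicase ring genes MCM2 to MCM7 in knockdown (coloured) and control (grey) groups, 1 pooled value per group without error bars and a separate axis for each comparison. All 6 bars are lower with knockdown in SKBR3, and with shRNA MCM2 and MCM7 are higher while MCM3 and MCM6 are lower.

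Origin factors had the lowest median of the 8 subgroups in SKBR3 (-0.82), with 3 of 5 genes called lower. CDC6, the loader of the MCM ring, had 84.9 FPKM in knockdown cells, against 149.6 FPKM in control cells. CDT1, its partner in loading, had 7.03 FPKM, against 11.6 FPKM, and ORC6 fell with a log2 ratio of -0.40. MCM10, which acts when origins fire, had 4.01 FPKM, against 7.52 FPKM, and missed the threshold at q = 0.0524 in the authors' deposited table. ORC1 had a ratio of the same size (3.70 FPKM, against 6.66 FPKM in control cells) and was not called. For these 2 genes a ratio near that of CDC6 came with a q above the threshold. The transcript that carried the test held 63.3% of the FPKM of MCM10 and 44.1% of that of ORC1. CDC45 and GINS4 were about as low and were called, at q = 0.00431 and 0.00958 in the authors' deposited table.

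Among polymerases and primase, 3 of 7 tested genes fell in SKBR3 (median -0.62 over 8). They were POLA2 (4.98 FPKM in knockdown cells, against 7.94 FPKM in control cells), POLD1, the catalytic subunit of polymerase delta (7.26 FPKM, against 11.5 FPKM), and POLE, that of polymerase epsilon (6.51 FPKM, against 9.70 FPKM). POLA1, POLD2, PRIM1 and PRIM2 were not called, with log2 ratios of -0.71, -0.39, -0.59 and -0.18. PCNA had 109.7 FPKM in knockdown cells, against 182.7 FPKM in control cells, a 1.67-fold fall. Of the loader genes, RFC3 fell (32.9 FPKM, against 41.8 FPKM) and RFC2, RFC4 and RFC5 were not called. FEN1, the flap nuclease of Okazaki fragments, had 42.8 FPKM in knockdown cells, against 66.0 FPKM in control cells. LIG1, the ligase that seals them, had 3.92 FPKM, against 7.69 FPKM, but was not tested, and RPA2 and RPA3 of the single-strand binding complex were not called.

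All 4 nucleotide supply genes fell in SKBR3, with a median log2 ratio of -0.70. RRM2, the regulatory subunit of ribonucleotide reductase that is made in S phase, had 37.1 FPKM in knockdown cells, against 78.0 FPKM in control cells (2.10-fold lower). Its partner RRM1 had 27.4 FPKM, against 41.4 FPKM. TYMS (thymidylate synthase) had 32.2 FPKM, against 56.3 FPKM, and TK1 (thymidine kinase) had 220.3 FPKM, against 291.8 FPKM. RRM2 thus had the lowest ratio of the 4 and TK1 the one nearest to 1.

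Cyclin E, CDK2 and E2F1 had the median log2 ratio nearest to 0 of the subgroups in SKBR3 (-0.30). CCNE1 had 9.61 FPKM in knockdown cells, against 11.8 FPKM in control cells, CCNE2 had 3.10 FPKM, against 3.64 FPKM, and CDK2 had 22.2 FPKM, against 27.3 FPKM. None of the 3 was called (q = 0.132, 0.425 and 0.421 in the authors' deposited table). E2F1, the transcription factor, had 11.6 FPKM, against 21.3 FPKM, a 1.83-fold fall. Of the chromatin genes, CHAF1A, the large subunit of the histone chaperone CAF-1, and UHRF1, which maintains DNA methylation behind the fork, fell. CHAF1A had 7.75 FPKM in knockdown cells, against 12.4 FPKM in control cells, and UHRF1 had 5.83 FPKM, against 9.68 FPKM. CHAF1B, the middle subunit of the same CAF-1 complex, was the single member that rose, with 17.4 FPKM in knockdown cells, against 13.8 FPKM in control cells (q = 0.0241 in the authors' deposited table). The CAF-1 subunit genes thus moved in opposite directions.

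**Figure D2:**
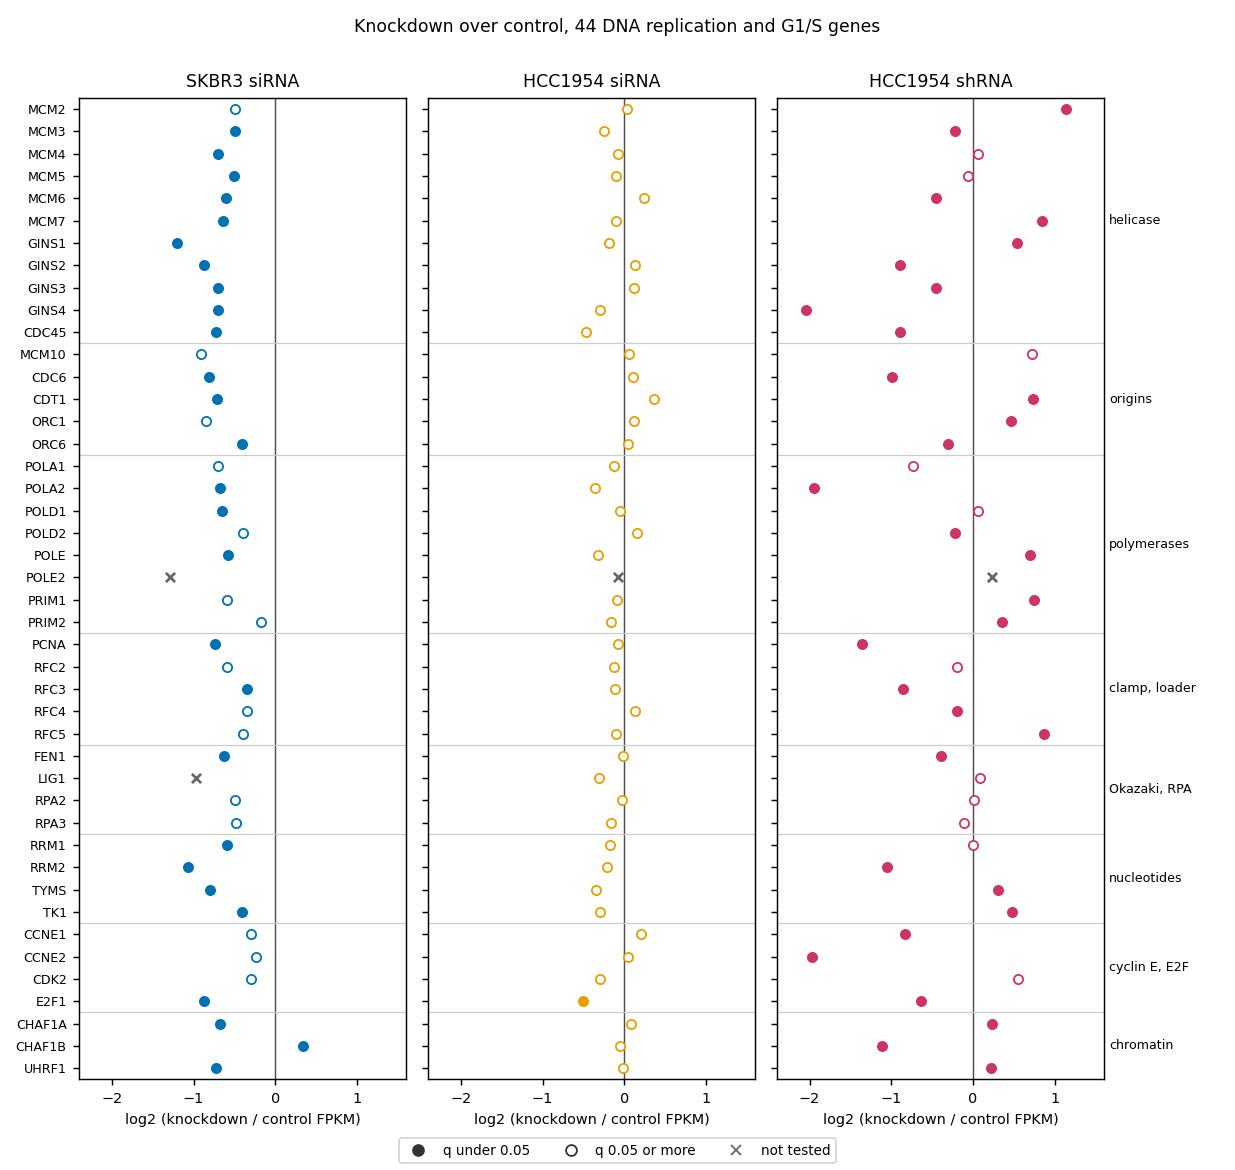
Log2 of knockdown over control FPKM for the 44 genes by role in SKBR3 siRNA, HCC1954 siRNA and HCC1954 shRNA, with filled points for a q under 0.05 in the authors' deposited tables, open points for other tested genes and crosses for untested ones. In SKBR3 43 of 44 points lie below 0, in HCC1954 siRNA they cluster near 0, and with shRNA they spread between -2.05 and 1.14.

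With the same siRNA in HCC1954, 1 of 43 tested members fell (2.33%), against 0.948% of all 11078 genes tested, and 0 rose, against 2.27%. E2F1 was that gene, with 10.3 FPKM in knockdown cells, against 14.7 FPKM in control cells (1.42-fold lower, q = 0.0471 in the authors' deposited table). It was called lower in all 3 comparisons. With siRNA in both lines it was the 1 of 42 members lower (2.38%), against 0.464% of the 9272 genes tested in both. At an unadjusted deposited p under 0.05 there were 6 members in either direction. The share of all genes at that p is not given here, so this count is not read further. The median log2 ratio was -0.08, against -0.01 over all genes with a mean of at least 1 FPKM, and 30 of 44 ratios were below 1.

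The subgroups in HCC1954 siRNA differed in the sign of their medians, without a call outside E2F1. All 4 nucleotide supply genes had ratios below 1 (median -0.25): RRM2 had 19.7 FPKM in knockdown cells, against 22.8 FPKM in control cells, and TYMS had 8.80 FPKM, against 11.2 FPKM. All 5 origin factors had ratios above 1 (median 0.11), and CDT1 was the highest of them at 12.8 FPKM, against 9.96 FPKM. Helicase genes had a median of -0.10, with CDC45 lowest at -0.46 and MCM6 highest at 0.25 (23.8 FPKM, against 20.1 FPKM in control cells), and polymerases and primase had one of -0.11. CCNE1 had 13.6 FPKM, against 11.8 FPKM, and CCNE2 had 6.52 FPKM, against 6.33 FPKM. PCNA had 90.9 FPKM in knockdown cells, against 95.7 FPKM in control cells. None of these passed the threshold, and a missing call does not show that the levels were equal.

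In the HCC1954 shRNA cells members were called in both directions, as were all genes tested. Of 43 tested members 19 fell (44.2%), against 39.1% of all 9734 genes tested, and 13 rose (30.2%), against 36.4%. Both shares were near those of all genes, and the median log2 ratio of -0.09 was near the 0.02 of all genes. The values were wide apart, from -2.05 (GINS4) to 1.14 (MCM2), with the middle range from -0.76 to 0.38, against -0.69 to 0.70 for all genes.

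The helicase held both ends of that range. GINS4 had 21.4 FPKM in shRNA cells, against 88.6 FPKM in control cells, a 4.14-fold fall, and GINS2 had 59.2 FPKM, against 110.3 FPKM. GINS3 also fell, whereas GINS1 rose to 34.7 FPKM, against 23.9 FPKM, so the 4 subunits of the complex did not move together. The GINS3 call came from 1 transcript (13.7 FPKM, against 25.2 FPKM), and the other GINS3 transcripts together were higher. In the MCM ring, MCM2 had 93.9 FPKM in shRNA cells, against 42.7 FPKM in control cells (2.20-fold higher), and MCM7 had 186 FPKM, against 103 FPKM. MCM3 and MCM6 fell, with log2 ratios of -0.22 and -0.45, and MCM4 and MCM5 were not called. MCM7 was the most abundant ring subunit in 5 of the 6 groups and MCM3 in the shRNA control. CDC45 had 10.6 FPKM, against 19.7 FPKM.

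The licensing pair CDC6 and CDT1, which fell together in SKBR3, moved apart with shRNA. CDC6 had 46.3 FPKM in shRNA cells, against 92.0 FPKM in control cells, and CDT1 had 58.9 FPKM, against 35.6 FPKM. ORC1 rose (20.3 FPKM, against 14.7 FPKM) and ORC6 fell (36.2 FPKM, against 44.7 FPKM). The ORC1 call came from 1 transcript (17.3 FPKM, against 7.23 FPKM), while another tested transcript had 2.42 FPKM, against 5.96 FPKM. MCM10 had 19.4 FPKM, against 11.8 FPKM, and was not called. In polymerase alpha-primase, POLA2 fell 3.85-fold, with 7.83 FPKM in shRNA cells, against 30.2 FPKM in control cells. The primase subunits PRIM1 and PRIM2 and polymerase epsilon (POLE) rose, with log2 ratios of 0.75, 0.35 and 0.70. POLD2, a subunit of polymerase delta, fell, with 63.0 FPKM in shRNA cells, against 73.3 FPKM in control cells (q = 0.0134 in the authors' deposited table). That q belongs to 1 transcript of POLD2 (27.2 FPKM, against 40.5 FPKM), while another tested transcript had 34.9 FPKM, against 30.7 FPKM. POLA1 and POLD1, the catalytic subunits of polymerases alpha and delta, were not called, with log2 ratios of -0.73 and 0.06. PCNA fell 2.56-fold, with 222 FPKM in shRNA cells, against 568 FPKM in control cells. Its loader subunit RFC5 rose (44.1 FPKM, against 24.1 FPKM), RFC3 and RFC4 fell, and RFC2 was not called. The RFC5 call came from 1 transcript with 39.4 FPKM, against 9.71 FPKM, and the other RFC5 transcripts together were lower. FEN1 had 148 FPKM in shRNA cells, against 194 FPKM in control cells, and was the single gene called among the Okazaki fragment and RPA genes. RPA2 had 50.3 FPKM, against 50.1 FPKM, and RPA3 had 8.93 FPKM, against 9.66 FPKM, so both stood near 1.

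Nucleotide supply genes were also called in both directions with shRNA. RRM2 had 171 FPKM in shRNA cells, against 355 FPKM in control cells, while TYMS had 201 FPKM, against 163 FPKM, and TK1 had 251 FPKM, against 181 FPKM. RRM1 had 92.7 FPKM, against 93.2 FPKM, and was not called. Cyclin E, with CDK2 and E2F1, had the lowest median of the subgroups here (-0.74). CCNE2 had 19.5 FPKM in shRNA cells, against 76.3 FPKM in control cells (3.91-fold lower), and CCNE1 had 16.3 FPKM, against 29.0 FPKM. The CCNE1 call came from 1 transcript (11.1 FPKM, against 24.6 FPKM), and the other CCNE1 transcripts together were slightly higher. CDK2 had 75.4 FPKM, against 51.7 FPKM, and was not called. E2F1 fell 1.56-fold, with 17.7 FPKM in shRNA cells, against 27.5 FPKM in control cells. CHAF1B fell to 20.9 FPKM in shRNA cells, against 45.0 FPKM in control cells. CHAF1A (25.7 FPKM, against 21.8 FPKM) and UHRF1 (44.6 FPKM, against 38.5 FPKM) rose, so all 3 chromatin genes had the sign opposite to that in SKBR3. The UHRF1 call came from 1 transcript (31.5 FPKM, against 21.5 FPKM), and the other UHRF1 transcripts together were lower.

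Set side by side, 14 of 42 members tested in both tables were lower in SKBR3 and with shRNA (33.3%), against 8.59% of the 8649 genes tested in both. They are 14 of the 26 lower in SKBR3 and of the 19 lower with shRNA: MCM3, MCM6, GINS2, GINS3, GINS4, CDC45, CDC6, ORC6, PCNA, RFC3, POLA2, FEN1, RRM2 and E2F1. A further 8 (19.0%, against 8.67% of all genes) were lower in SKBR3 and higher with shRNA, namely MCM7, GINS1, CDT1, POLE, TYMS, TK1, CHAF1A and UHRF1. CHAF1B was higher in SKBR3 and lower with shRNA (2.38%, against 7.19%). The comparisons share no samples. Both overlaps with SKBR3 lower carry the excess of members lower in SKBR3 (61.9%, against 20.7% of all genes tested). With shRNA the shares of members were near those of all genes, so the overlaps do not by themselves show agreement between the comparisons.

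Whether a ratio differed between comparisons was tested with z, the difference of the log2 ratios of 1 shared transcript over their joint standard error, with Benjamini-Hochberg adjustment over all genes compared. SKBR3 and HCC1954 siRNA differed for 0 of 42 members, against 0.494% of all 9109 genes. At an unadjusted p under 0.05 there were 4 members, and the share of all genes at that p is not given here. The 26 calls in SKBR3 and the 1 call in HCC1954 siRNA are thus not shown to differ gene by gene with this error. The error was the log2 ratio over the deposited statistic. In HCC1954 siRNA it was 0.372 for E2F1 and 0.298 for CDC6, against 0.154 and 0.119 from the authors' deposited p. The count of 0 therefore does not show that the lines responded alike. Between HCC1954 shRNA and siRNA 4 of 43 members differed (9.30%), against 13.4% of genes, and they were GINS4, CDC6, PCNA and POLA2, each lower with shRNA. Between SKBR3 siRNA and HCC1954 shRNA 12 of 42 differed (28.6%), against 26.6% of genes. GINS1 had the largest of these differences at -1.81 (z = -6.38), and MCM7, CDT1, POLE, TYMS, TK1 and CHAF1A had the same sign, while CCNE2, GINS4, POLA2, PCNA and CHAF1B were lower with shRNA. E2F1 had differences between -0.36 and -0.13 in the 3 pairs, none of which passed the threshold. With a standard error taken from the deposited p, the counts were 10, 22 and 22 members (23.8%, 51.2% and 52.4%), against 12.1%, 48.7% and 60.3% of all genes. The counts thus depend on that choice, for all genes as for the members.

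Of a list of 37 further replication genes, 16 of 33 tested fell in SKBR3 (48.5%, against 20.7% of all genes tested) and 1 rose, with a median log2 ratio of -0.45. RNASEH2A, a subunit of the enzyme that removes RNA from DNA, had 10.1 FPKM in knockdown cells, against 20.5 FPKM in control cells. TICRR, TIMELESS, DNMT1 and ASF1B also fell. SAMHD1, which breaks down dNTPs, was the 1 that rose (8.73 FPKM, against 5.82 FPKM). In HCC1954 siRNA 0 of 33 were called in the authors' deposited table, where 0.948% of all genes tested fell and 2.27% rose. One stood at an unadjusted p under 0.05, again without a share of all genes. With shRNA 11 of 35 fell (31.4%, against 39.1% of all genes tested) and 7 of 35 rose, against 36.4% of all genes. POLE4, an accessory subunit of polymerase epsilon, had 15.0 FPKM in shRNA cells, against 74.2 FPKM in control cells, and POLD3 had 9.60 FPKM, against 35.6 FPKM, whereas MCMBP, which binds MCM proteins, had 61.7 FPKM, against 24.9 FPKM. RNASEH2A rose there, to 51.9 FPKM, against 27.5 FPKM. MCM8, TICRR, DUT and TOPBP1 also fell with shRNA, and RECQL4, ASF1A, MCM9 and ORC2 also rose.

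Of a list of 29 regulators upstream of S phase, 11 of 26 tested fell in SKBR3 (42.3%, against 20.7% of all genes tested) and 2 rose (7.69%, against 12.5%). Those that fell were E2F8, E2F2, CCND3, CCNA2, SKP2, E2F7, RBL1, CDK4, CDKN2C, TFDP1 and RB1, with log2 ratios between -1.17 (E2F8) and -0.27 (RB1). CDKN2B, the CDK4 and CDK6 inhibitor p15, had 26.2 FPKM in knockdown cells, against 6.45 FPKM in control cells (4.07-fold higher), and CCND1 (cyclin D1) had 156 FPKM, against 112 FPKM. In HCC1954 siRNA 2 of 24 rose (8.33%, against 2.27% of all genes tested) and 0 fell. CDKN1A, the CDK inhibitor p21, had 45.7 FPKM, against 15.7 FPKM (2.90-fold higher), and E2F2 had 4.46 FPKM, against 2.50 FPKM. In HCC1569, in a separate table of selected genes, CDKN1A had 41.0 FPKM in siRNA cells, against 23.2 FPKM in control cells (q = 0.00139 in the authors' deposited table). E2F2 was not tested in that table, with 1.81 FPKM in siRNA cells, against 1.93 FPKM in control cells. With shRNA 10 of 27 fell and 10 rose (37.0% each way), near the 39.1% and 36.4% of all genes tested. CDKN2B had 2.10 FPKM in shRNA cells, against 15.6 FPKM in control cells, and CCND1 had 159 FPKM, against 459 FPKM, both opposite in sign to SKBR3, while MYC had 96.3 FPKM, against 33.7 FPKM, and CDKN1A had 96.1 FPKM, against 40.6 FPKM. The others that fell were CDKN2C, CDKN2D, CCND3, CDKN2A, E2F8, RBL1, SKP2 and RB1, with log2 ratios between -2.17 (CDKN2C) and -0.21 (RB1). The others that rose were E2F5, E2F6, CDKN1B, E2F3, E2F7, E2F4, E2F2 and CDK4, with log2 ratios between 0.31 (CDK4) and 2.20 (E2F5). Of the G2 and mitosis genes, 20 of 24 tested fell in SKBR3 (83.3%, against 20.7% of all genes tested), with a median of -0.65. The fall in SKBR3 was thus not particular to the replication genes. In HCC1954 the G2 and mitosis genes had medians of -0.26 with siRNA and 0.08 with shRNA. With siRNA 1 of 25 fell (4%, against 0.948% of all genes tested) and 0 rose, against 2.27%. With shRNA 8 of 25 fell (32%, against 39.1%) and 11 rose (44%, against 36.4%).

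The control groups of HCC1954 themselves differed in these genes, a comparison made after the values were seen. The shRNA control had higher FPKM than the siRNA control for 43 of 44 members (97.7%), against 52.8% of all genes with a mean of at least 1 FPKM and a value above 0 in both. It was at least 2-fold higher for 32 members (72.7%), against 16.3% of those genes. The median log2 ratio of shRNA control over siRNA control was 1.54 for the members, 0.95 for the G2 and mitosis genes and 0.05 for all 12569 genes with a mean of at least 1 FPKM. RRM2 had 355 FPKM in the shRNA control, against 22.8 FPKM in the siRNA control (15.6-fold higher). TYMS had 163 FPKM, against 11.2 FPKM, CCNE2 had 76.3 FPKM, against 6.33 FPKM, and PCNA had 568 FPKM, against 95.7 FPKM. POLD2 alone was lower, with 73.3 FPKM, against 106 FPKM. These levels come from tables normalized separately and were not tested. By these values the 2 HCC1954 comparisons started from control levels at least 2-fold apart for 32 of the 44 members.

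**Figure D3:**
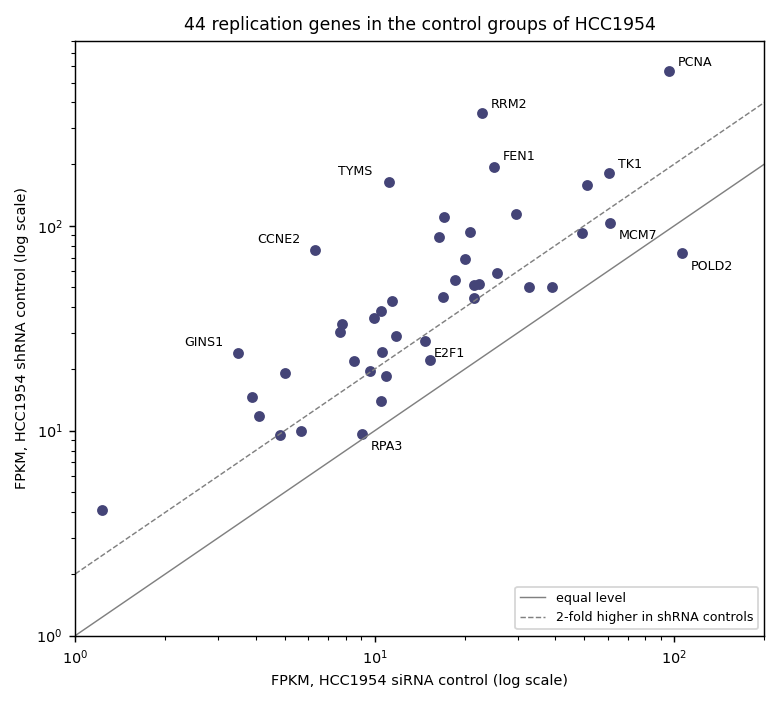
FPKM of the 44 genes in the HCC1954 shRNA control (vertical, log scale) against the HCC1954 siRNA control (horizontal, log scale), 1 pooled value per gene and group from separately normalized tables. All points but POLD2 lie above the line of equal level, and 32 lie at least 2-fold above it, with RRM2, TYMS and CCNE2 farthest.

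Members were then set beside the genes around them, up to 20 expressed protein-coding genes on each side on GRCh37, also chosen after the values were seen. In SKBR3 the medians of these neighbourhoods lay between -0.29 and 0.12, and 43 of 44 members were below that of their own, by 0.59 in the median. In HCC1954 siRNA the neighbourhoods lay between -0.15 and 0.16, with 29 members below theirs. With shRNA they lay between -1.37 and 0.81, with 12 below -0.3 and 11 above 0.3, and 27 members were below theirs. PCNA on chromosome 20 (5095599 to 5107272 on GRCh37) had a log2 ratio of -1.36 with shRNA, and its neighbours had a median of -0.77 with 27 of 31 tested genes lower. CHAF1B on chromosome 21 had -1.11 and its neighbours -0.80, with 21 of 30 lower. GINS4 and CCNE2 on chromosome 8 had -2.05 and -1.97, and their neighbours -0.54 and -0.66. POLA2 on chromosome 11 had -1.95 and its neighbours -0.39. Other members went against their surroundings: TYMS on chromosome 18 had 0.30 where 17 of 20 tested neighbours were lower (median -0.73), and MCM2 on chromosome 3 had 1.14 against -0.28. What moved these neighbourhoods was not tested.

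**Figure D4:**
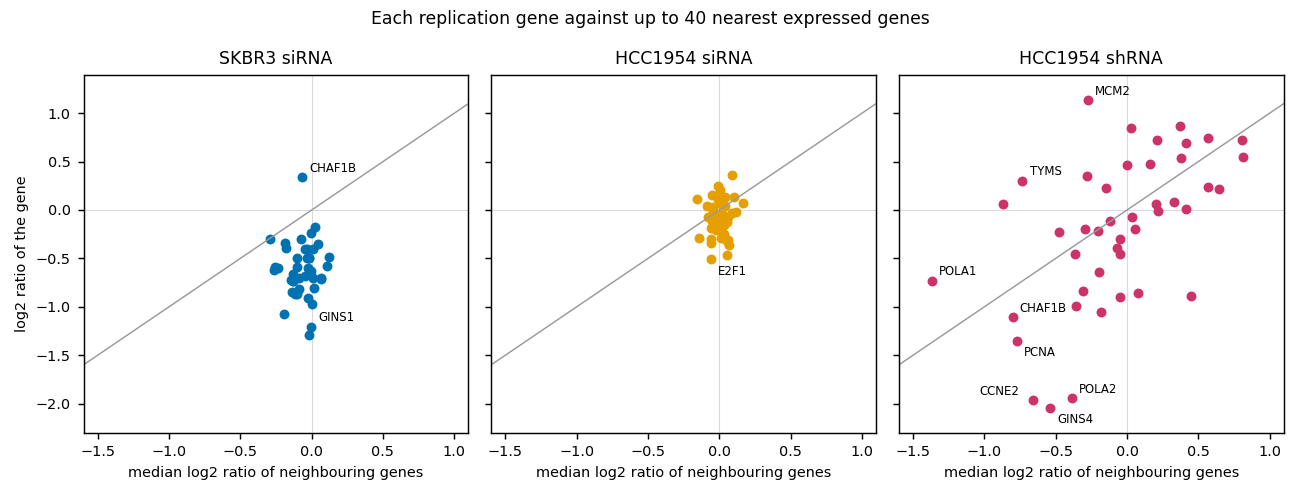
Log2 ratio of each of the 44 genes (vertical) against the median log2 ratio of up to 20 expressed genes on each side (horizontal), with the line of equality, for SKBR3 siRNA, HCC1954 siRNA and HCC1954 shRNA. In SKBR3 the neighbourhoods stay between -0.29 and 0.12 and 43 of 44 genes lie below the line, while with shRNA the neighbourhoods themselves spread between -1.37 and 0.81.

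The E2F letters in the promoter went with a small difference in ratio. In SKBR3 the 19 members with a match had a median log2 ratio of -0.72 and 15 of them fell, and the 18 without had -0.59 and 8 fell. With shRNA the medians were -0.22 with and -0.10 without a match, and in HCC1954 siRNA -0.10 and -0.05. Members with the AP-2 letters had a median of -0.71 in SKBR3, against -0.61 without, and 0.23 with shRNA, against -0.21. These splits are descriptions without a test, and the 7 members with no window in the table, MCM4, MCM5, GINS4, RPA2, RPA3, CCNE2 and CDK2, are not in them.

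Counting could also touch single members. The exons of 15 members overlap those of another protein-coding gene on GRCh37, as MCM7 with AP4M1, TYMS with ENOSF1 and CCNE2 with INTS8 on opposite strands, and FEN1 with FADS2 and CHAF1B with MORC3 on the same strand. Whether reads were counted by strand is not stated, so reads of such pairs cannot be told apart. The transcript that carried the test held 49.7% or more of the gene's FPKM for every member called changed.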

How the data were processed

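RNA libraries were made with a TruSeq kit, per the labels. The submitters' processing notes name Bowtie 0.12.2, Cuffdiff without a version, and hg19/GRCh37. The deposited tables hold 1 FPKM value per RefSeq entry and group, per the file headers. The authors' test statistic was used as a deposited score, and each entry's p-value and q-value are theirs, per the file headers. Recomputing q from the deposited p by the Benjamini-Hochberg method changed 0 calls.

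Of 66321 entries 65468 matched a symbol through NCBI RefSeq names (GRCh38.p14, names alone). FPKM was summed per symbol without a pseudocount, and a symbol's call came from its tested entry with the highest FPKM. All 114 member entries lay on their GRCh37 gene in the GENCODE annotation. The standard error in the difference test was the log2 ratio over the deposited statistic, with a two-sided normal p. The test was run on simulated data drawn with those same standard errors. Such data cannot show whether the errors themselves are right. No model over samples was fitted. Promoter windows and motifs were read with Python 3.11.15 (numpy 2.4.6, pandas 2.3.3, scipy 1.17.1).

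All 44 members are named, with called regulators and up to 6 called further replication genes per direction. One gene that this rule names is not reported here. The members, gene lists, motifs and tests were chosen with earlier results of these data known. The neighbour, control-level, motif-split and shared-call descriptions were added after seeing the data. Alternatives were another transcript per symbol, stricter thresholds, a pseudocount of 1, a minimum of 1 FPKM, centring, and a standard error from the deposited p.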

Additional observations from a re-analysis of the deposited data

Results flagged for a closer look

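The log2 ratios of the following genes differed between comparisons by the z test of the difference itself, on 1 shared transcript, and are given as differences. HCC1954 shRNA minus HCC1954 siRNA was -1.75 for GINS4, -1.58 for POLA2, -1.35 for PCNA and -1.10 for CDC6. SKBR3 siRNA minus HCC1954 shRNA was -1.81 for GINS1, -1.62 for MCM7, -1.45 for CDT1, -1.30 for TYMS, -1.27 for POLE, -0.91 for CHAF1A and -0.88 for TK1, all lower in SKBR3. The same difference was 1.73 for CCNE2, 1.45 for CHAF1B, 1.34 for GINS4, 1.27 for POLA2 and 0.66 for PCNA, all lower with shRNA. For PCNA this difference did not pass the threshold with a standard error from the deposited p. SKBR3 and HCC1954 differ in line as well as in the means of knockdown in this second pair, and these cannot be told apart. Across all genes 13.4% and 26.6% differed in the same tests.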

How the results depend on the processing

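No paired analysis was possible because the deposited values pool the samples of each group, and for the same reason no replicate could be left out. With q under 0.01, 0 members rose in SKBR3 (1 as reported) and 0 fell in HCC1954 siRNA (1 as reported). With a standard error from the deposited p, 10 members differed between SKBR3 siRNA and HCC1954 siRNA (0 as reported). Between HCC1954 shRNA and siRNA 22 then differed (4 as reported), and between SKBR3 siRNA and HCC1954 shRNA 22 (12 as reported). PCNA was among the 12 reported for that last pair but not among the 22. Over all genes 12.1%, 48.7% and 60.3% then differed, against 0.494%, 13.4% and 26.6% as reported. Read through a normal distribution, the deposited statistic and p gave unlike errors. For POLA2 in HCC1954 siRNA the error was 0.390 from the statistic and 0.160 from the p. For CDC6 in HCC1954 shRNA, at the lowest deposited p (5e-05), it was 0.133 and 0.244. Which error is right was not tested. The other 49 alternatives for the counts and medians moved a count by no more than 1.5 times or a median by less than 0.1 log2. Member ratios moved by more than 0.1 log2 in 64 cases, most with 1 transcript in place of the sum, and by less in 588. No called member changed sign in these cases, where the 1 transcript was the one that carried the test. Other tested transcripts could differ: with shRNA 1 of POLD2, called lower, had a log2 ratio of 0.19. One of ORC1, called higher, had -1.30. For further members the transcripts that did not carry the test together went the other way with shRNA. Among these were GINS3 and CCNE1, called lower, and UHRF1, called higher. Depth is unknown, so the limit it sets on low genes such as POLE2 is unknown.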
